A study of Mus musculus with 12 samples.

Results

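The 10 genes described here encode the enzymes that build triglyceride on a glycerol-3-phosphate backbone by way of phosphatidic acid, together with the monoacylglycerol entry to the same end product. They were chosen by name, as Gpam, Gpat4, Agpat2, Agpat3, Lpin1, Lpin2, Lpin3, Dgat1, Dgat2 and Mogat1, and all 10 were found among the 53465 gene IDs of the count table. RNA was sequenced from mouse liver in 12 libraries, which fell into 4 groups of 3. Control mice carried the floxed Pld1 gene (Pld1-Flox, genotype label WT). The other mice are named Pld1(H)-KO and are called KO here; the series description speaks of a knockout in hepatocytes, whereas the genotype label reads Pld1 knockdown. Each genotype was fed a normal chow diet or a high-fat diet (HFD), the latter for 20 weeks according to the series description. The age and sex of the mice, the Cre driver and whether each library came from a separate animal were not given in the labels. The p-values therefore rest on library-to-library spread alone, which may be technical, and the labels name no batch.

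Glycerol-3-phosphate acyltransferases add the first fatty acid to glycerol-3-phosphate, and lysophosphatidate acyltransferases add the next, which gives phosphatidic acid. Lipins remove the phosphate to give diacylglycerol, and diacylglycerol acyltransferases add the last fatty acid to give triglyceride, which the liver stores in droplets or exports in lipoproteins. Phospholipase D1, the product of Pld1, makes phosphatidic acid from phosphatidylcholine outside this chain of acylations.

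The libraries held 18215008 to 22378180 counts over genes. Levels are given as CPM, the count of a gene relative to the effective size of its library, and errors after ± are the SD over the 3 libraries of a group. Log2 fold changes, their standard errors (SE) and adjusted p-values came from the quasi-likelihood model of edgeR fitted to 14778 genes, with a threshold of 0.05. Pld1 itself was at 9.07 to 11.3 CPM in chow-fed controls, 3.45 to 4.67 in chow-fed KO livers, 6.48 to 7.72 in HFD-fed controls and 1.93 to 2.94 in HFD-fed KO livers. It was thus at 38.1% of the control level on chow and 36.7% on HFD, counted over the whole gene. Hepatocyte markers were abundant throughout, the 5 on the list summing to 77312 to 92790 CPM. The 3 skeletal muscle markers summed to at most 0.0508 CPM in a library, and 5 adipocyte markers together stayed between 3.50 and 8.60 CPM, with Lep at 0 in all groups. Markers of other cell types differed between the groups. The sum of 5 macrophage markers was 99.3 to 100.5 CPM in chow-fed controls, 104 to 108 in HFD-fed controls, 245 to 252 in chow-fed KO livers and 144 to 155 in HFD-fed KO livers. In the same order of groups, 5 neutrophil markers summed to 13.5 to 14.2, 0.405 to 0.875, 38.1 to 42.7 and 4.67 to 5.18 CPM, and 5 cholangiocyte markers to 51.7 to 58.0, 48.3 to 51.0, 163 to 176 and 32.5 to 33.9 CPM. Spp1 held most of the cholangiocyte sum, at 39.3, 36.5, 154 and 23.3 CPM in that order. Krt7, another of these markers, stood at 1.18, 0.678, 1.12 and 0.502 CPM. Of the 5 cholangiocyte markers 2 were higher in chow-fed KO livers and 3 did not pass, where 31.2% of all tested genes were called. The part of these cell types in the results was not tested. In bulk tissue, fewer cells of a type and less RNA per cell cannot be told apart.

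Among these enzymes Lpin1 had the largest called difference between genotypes on chow (log2 fold change 1.95), and Mogat1 the largest on HFD (-1.49) and with the diet in controls (2.75). In HFD-fed KO livers 5 of the 10 genes were higher than in controls and 3 were lower, where 16.7% and 15.6% of all tested genes were called in these directions and 32.4% in either. Chow-fed KO livers had 2 genes higher and 2 lower, beside 15.8% and 15.3% of all genes and 31.2% in either direction. The diet raised 5 and lowered 4 in controls, against 18.8%, 18.9% and 37.7% of all genes. In KO livers it raised 7 and lowered none, against 18.5%, 18.1% and 36.6%. The difference between genotypes was itself different on the 2 diets for 9 genes, 4 with a higher value on HFD and 5 with a lower one, beside 15.2%, 14.7% and 29.8% of all genes. The median log2 fold change of the 10 genes was 0.10 for KO against control on HFD, -0.11 on chow, 0.25 for the diet in controls and 0.36 in KO livers, while that of all tested genes lay between -0.0073 and -0.0012. With every gene's coefficient of variation fixed at 20%, 2 of the 10 passed between genotypes on HFD, 1 on chow, 3 with the diet in controls, 1 with the diet in KO livers and 1 for the difference between diets. These were Lpin1 and Mogat1 between genotypes on HFD, Lpin1 on chow, Lpin1, Lpin2 and Mogat1 with the diet in controls, Mogat1 in KO livers and Lpin1 for the difference between diets. Of the 14778 tested genes, 534, 931, 1194, 1102 and 510 passed with this variation, in the same order of comparisons.

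**Figure D1:**
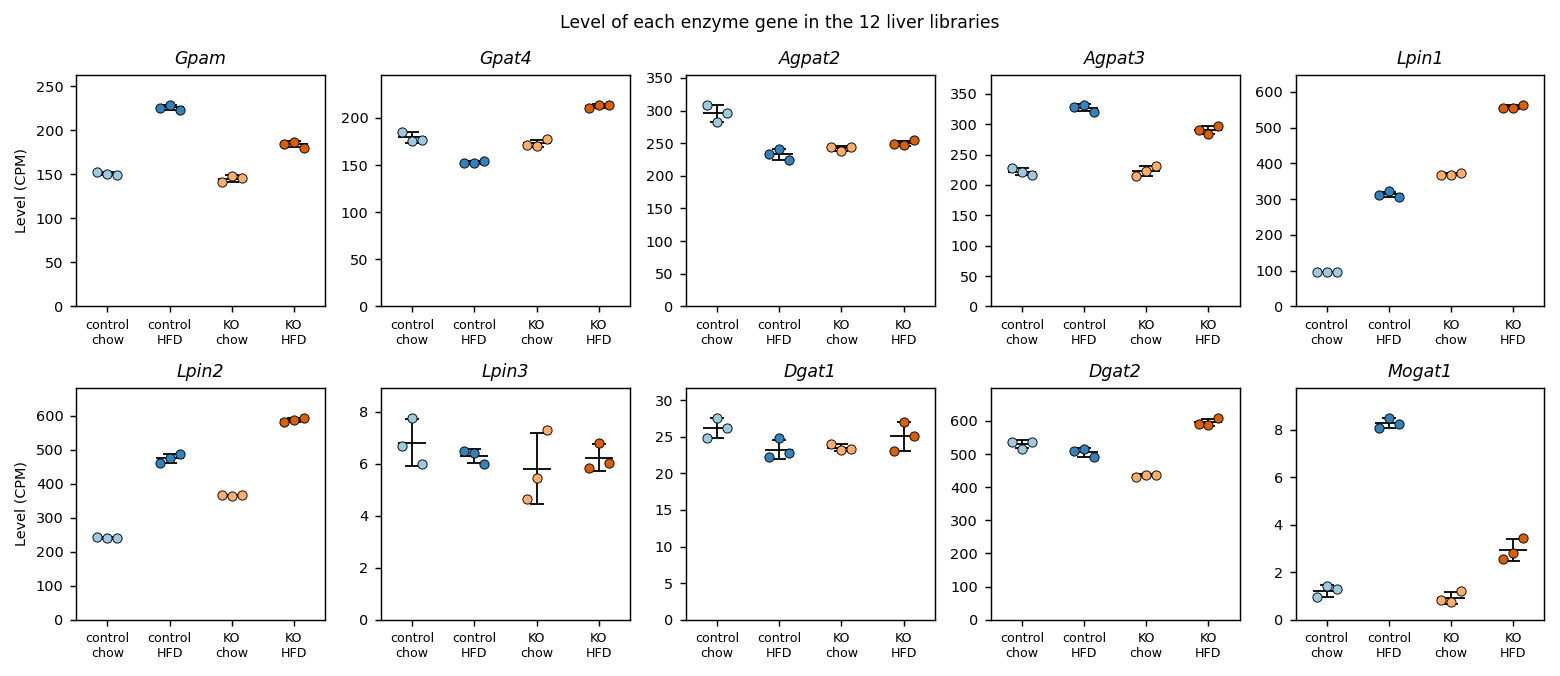
Level of each of the 10 enzyme genes (CPM, linear axes from 0) in each library; points are libraries, horizontal bars means and error bars SD with n = 3. Lpin1 rose from 95.9 CPM in chow-fed controls to 557 CPM in HFD-fed KO livers, whereas the groups overlapped for Lpin3.

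The first acylation is shared by Gpam, which encodes the mitochondrial glycerol-3-phosphate acyltransferase, and Gpat4, which encodes an enzyme of the endoplasmic reticulum. They moved in opposite directions with the diet in controls and between genotypes on HFD. Gpam (ENSMUSG00000024978, chromosome 19) stood at 153, 150 and 149 CPM in chow-fed controls and at 226, 229 and 223 CPM in HFD-fed controls. In KO livers its libraries were at 141, 148 and 146 CPM on chow and at 184, 187 and 180 CPM on HFD. All 3 KO libraries on HFD thus lay above both chow groups and below the HFD-fed controls. Gpam rose with the diet by 0.58 (SE 0.031, adjusted p = 4.23e-17) in controls and by 0.34 (SE 0.031, adjusted p = 4.85e-11) in the KO genotype. HFD-fed KO livers held less of it than controls (log2 fold change -0.30, SE 0.030, adjusted p = 1.14e-09), at 81.4% of the control level. On chow the difference of -0.056 did not pass (adjusted p = 0.189), although the libraries of the genotypes did not overlap. With a trend over transcript length and GC taken out of every library it was -0.10 (adjusted p = 0.00730).

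Gpat4 (ENSMUSG00000031545, chromosome 8) was at 186, 176 and 176 CPM in chow-fed controls and at 152, 152 and 154 CPM in HFD-fed controls. Its KO libraries were at 171, 170 and 178 CPM on chow and 211, 214 and 214 CPM on HFD. The chow groups overlapped, the HFD-fed controls lay below them and the HFD-fed KO livers above them. Between genotypes on chow the difference of -0.050 did not pass (adjusted p = 0.239), but it was -0.11 (adjusted p = 0.00196) with the length and GC trend taken out. The diet lowered Gpat4 in controls (log2 fold change -0.23, SE 0.031, adjusted p = 2.08e-07) and raised it in KO livers (0.30, SE 0.031, adjusted p = 1.10e-09). On HFD it was 1.39-fold higher in KO livers than in controls (0.48, SE 0.031, adjusted p = 2.17e-14), and the genotype difference on HFD exceeded that on chow by 0.53 on the log2 scale (SE 0.044, adjusted p = 1.28e-11). For Gpam this difference between diets was -0.24 (SE 0.043, adjusted p = 4.73e-05), and -0.11 (adjusted p = 0.0377) once a trend over transcript length and GC had been taken out of every library.

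Agpat2 and Agpat3 encode acyltransferases that make phosphatidic acid from lysophosphatidic acid; human AGPAT2 is known for its loss in congenital lipodystrophy. Agpat2 (ENSMUSG00000026922, chromosome 2) was highest in chow-fed controls, at 309, 283 and 296 CPM. It was at 233, 241 and 225 CPM in HFD-fed controls, 244, 237 and 245 CPM in chow-fed KO livers and 248, 247 and 255 CPM in HFD-fed KO livers. No library of the other 3 groups reached the chow-fed controls. Agpat2 fell with the diet in controls (log2 fold change -0.34, SE 0.032, adjusted p = 1.02e-10) and was lower in chow-fed KO livers (-0.29, SE 0.032, adjusted p = 6.82e-09). Its excess of 0.10 in HFD-fed KO livers (SE 0.032, adjusted p = 0.0162) was not firm. The call was lost without control_HFD replicate 3 (adjusted p = 0.0986) or KO_HFD replicate 3 (0.0604), and the value turned to -0.0039 (adjusted p = 0.941) with that trend taken out, over a range of 0.00515 to 0.998 across the alternatives. In KO livers the diet difference of 0.046 did not pass (adjusted p = 0.288).

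Agpat3 (ENSMUSG00000001211, chromosome 10) showed the other arrangement. Controls were at 228, 222 and 216 CPM on chow and 329, 332 and 321 CPM on HFD, and KO livers were at 214, 223 and 231 CPM on chow and 291, 283 and 297 CPM on HFD. The chow groups overlapped, and the HFD-fed KO livers lay between chow and the HFD-fed controls. It rose with the diet by 0.56 (SE 0.031, adjusted p = 1.72e-16) in controls and by 0.38 (SE 0.031, adjusted p = 3.37e-12) in the KO genotype. KO livers had less of it than controls on HFD (-0.17, SE 0.030, adjusted p = 3.34e-05), a value of -0.081 (adjusted p = 0.0171) with the trend over length and GC taken out. The chow-fed genotypes stood at 222 and 223 CPM (log2 fold change 0.0051, adjusted p = 0.928), a difference that became -0.085 (adjusted p = 0.0142) in that fit. The genotype difference changed with the diet by -0.18 (adjusted p = 0.00209), a value that was 0.0033 (adjusted p = 0.960) with the same trend taken out, over a range of 0.000520 to 0.999 across the alternatives.

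Lipins are the phosphatidate phosphatases that turn phosphatidic acid into diacylglycerol, and lipin 1, encoded by Lpin1, is also known as a nuclear coactivator induced in liver by fasting and glucocorticoids. Lpin1 and Lpin2 were higher in KO livers than in controls on both diets and higher on HFD than on chow in both genotypes. Lpin1 (ENSMUSG00000020593, chromosome 12) stood at 96.0, 95.8 and 96.0 CPM in chow-fed controls. Its libraries were at 311, 321 and 306 CPM in HFD-fed controls, 369, 367 and 373 CPM in chow-fed KO livers and 554, 554 and 564 CPM in HFD-fed KO livers. The 4 groups did not overlap, and the chow-fed KO livers lay above the HFD-fed controls.

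Lpin1 was 3.85-fold higher in KO than in control livers on chow, with a log2 fold change of 1.95 (SE 0.028, adjusted p = 2.45e-32), which ranked 29 from the top among 9688 genes of at least 5 CPM in either group. On HFD it was 1.78-fold higher (0.83, SE 0.026, adjusted p = 6.46e-23), at rank 103 of 9575. The diet raised it 3.26-fold in controls (1.71, SE 0.028, adjusted p = 3.50e-31) and 1.51-fold in KO livers (0.59, SE 0.026, adjusted p = 3.95e-19). The genotype difference was smaller on HFD than on chow by 1.11 (log2 difference -1.11, SE 0.038, adjusted p = 1.49e-21). With a coefficient of variation of 20%, Lpin1 still passed between genotypes on chow (adjusted p = 8.53e-13) and on HFD (0.0178) and with the diet in controls (2.23e-10), but not with the diet in KO livers.

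Lpin2 (ENSMUSG00000024052, chromosome 17) followed a similar order with smaller steps. Controls were at 244, 239 and 239 CPM on chow and 462, 476 and 489 CPM on HFD, and KO livers at 367, 365 and 367 CPM on chow and 583, 589 and 594 CPM on HFD. Here too no groups overlapped, but the HFD-fed controls lay above the chow-fed KO livers. Lpin2 was 1.52-fold higher in chow-fed KO livers (0.60, SE 0.026, adjusted p = 2.51e-19) and 1.24-fold higher on HFD (0.31, SE 0.025, adjusted p = 6.12e-12). The diet raised it 1.97-fold in controls (0.98, SE 0.026, adjusted p = 1.51e-25) and 1.61-fold in KO livers (0.68, SE 0.025, adjusted p = 3.32e-21). Its genotype difference was smaller on HFD by 0.30 (log2 difference -0.30, SE 0.036, adjusted p = 5.08e-08), or by 0.17 with the length and GC trend taken out (log2 difference -0.17, adjusted p = 0.000104).

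Lpin3 (ENSMUSG00000027412, chromosome 2) was low and did not pass the threshold in any comparison. Its 12 libraries ran from 4.66 CPM in a KO library on chow to 7.76 CPM in a control library on chow, and every pair of neighbouring groups overlapped. For KO against control the log2 fold change was -0.016 (SE 0.14, adjusted p = 0.949) on HFD. On chow it was -0.23 (SE 0.14, adjusted p = 0.231) and reached -0.43 (adjusted p = 0.0287) without KO_chow replicate 3. With 353 to 408 counts per group, small differences were not detectable at this depth.

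The start regions of Lpin1 and Lpin2 are shown because these genes rose together, with those of Gpam and Mogat1, which also rose with the diet in both genotypes and whose group means spanned at least 1.5-fold. They are taken from RefSeq on GRCm38.p6, run 5′ to 3′ from 250 bases before to 50 bases after an annotated start, and were matched by symbol. There were 11 windows for 7 of the 10 genes, and none was found under the symbols Gpat4, Dgat1 and Dgat2. Capitals mark matches to any of 6 short motifs, searched on both strands. These were the sterol response element TCACNCCAC, the E-box with the letters CACGTG, the well-known CCAAT box, the cAMP response element TGACGTCA, the half-site of the glucocorticoid response element with the letters AGAACA and the D-box TTATGNAA.
Lpin1 (chr12:16610917-16611216, minus strand): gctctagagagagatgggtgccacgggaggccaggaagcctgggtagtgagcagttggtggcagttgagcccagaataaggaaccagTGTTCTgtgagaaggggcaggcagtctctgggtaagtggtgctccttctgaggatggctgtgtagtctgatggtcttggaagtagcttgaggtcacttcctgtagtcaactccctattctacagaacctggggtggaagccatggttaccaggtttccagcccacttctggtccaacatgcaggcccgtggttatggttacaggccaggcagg
Lpin2 (chr17:71183282-71183581, plus strand): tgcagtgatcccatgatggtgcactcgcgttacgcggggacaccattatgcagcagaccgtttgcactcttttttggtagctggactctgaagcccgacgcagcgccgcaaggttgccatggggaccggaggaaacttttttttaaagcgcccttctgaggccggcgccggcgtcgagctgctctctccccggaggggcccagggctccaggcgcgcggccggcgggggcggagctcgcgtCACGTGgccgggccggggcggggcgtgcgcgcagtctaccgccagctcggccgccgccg
Gpam (chr19:55127189-55127488, minus strand): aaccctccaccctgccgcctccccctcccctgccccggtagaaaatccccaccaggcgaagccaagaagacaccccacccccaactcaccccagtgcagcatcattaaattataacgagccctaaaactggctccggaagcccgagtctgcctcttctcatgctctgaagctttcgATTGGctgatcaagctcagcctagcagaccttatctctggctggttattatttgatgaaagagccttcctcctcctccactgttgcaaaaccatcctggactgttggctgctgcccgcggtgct
Mogat1 (chr1:78510810-78511109, plus strand): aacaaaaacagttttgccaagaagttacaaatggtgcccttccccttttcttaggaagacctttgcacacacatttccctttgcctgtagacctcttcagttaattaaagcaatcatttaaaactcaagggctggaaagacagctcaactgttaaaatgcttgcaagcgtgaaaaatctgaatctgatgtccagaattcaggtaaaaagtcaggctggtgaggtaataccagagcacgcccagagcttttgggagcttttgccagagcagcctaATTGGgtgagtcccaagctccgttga

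The Lpin1 window held the half-site letters on the reverse strand from -163 to -158 relative to the start, a match that 19.0% of 32851 windows of this length hold. The first Lpin2 window held an E-box from -9 to -4, which 7.15% of windows hold. Gpam had a reversed CCAAT box from -74 to -70 and Mogat1 from 24 to 28, and 37.4% of windows hold that box. The same letters also stood at Lpin3, which passed in no comparison: a window of that gene held a half-site from -245 to -240 and an E-box from 22 to 27. The other Lpin2 window with matches held a half-site from -203 to -198 and 3 reversed CCAAT boxes. A further window of Gpam, not shown, held no match to any of the motifs. No window of the 7 genes held the sterol response element (1.24% of all windows), the cAMP response element (1.79%) or the D-box (3.38%). These are matches of letters in short windows, and no binding was measured.

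Genes known to respond to glucocorticoids were set beside the lipins after their values had been seen. Of 12 genes of the fasting and glucocorticoid response, 9 were higher and 2 lower in chow-fed KO livers, beside 31.2% of all genes. On HFD 6 were higher and 3 lower, beside 32.4%. With the diet 7 were higher and 5 lower in controls, beside 37.7% of all genes. In KO livers the diet gave 6 higher and 4 lower, beside 36.6%. Pdk4, a kinase gene induced by fasting, was lower in KO livers on both diets. Fkbp5, which encodes a chaperone of the glucocorticoid receptor, was at 16.1 ± 1.06 CPM in chow-fed controls, 45.3 ± 2.53 in HFD-fed controls, 55.6 ± 1.01 in chow-fed KO livers and 104 ± 5.53 in HFD-fed KO livers, the same order of groups as Lpin1. Tsc22d3, which encodes the leucine zipper protein GILZ, stood at 165 ± 1.42, 236 ± 4.50, 259 ± 3.50 and 337 ± 5.36 CPM in the same sequence. The list as a whole did not share this order, as 5 of its 12 genes were lower with the diet in controls. Tat, which encodes tyrosine aminotransferase, was higher in KO livers on both diets, with log2 fold changes of 0.69 on chow and 0.93 on HFD, but was lowered by the diet in controls (-0.54). Dbp, an output gene of the circadian clock, had the order of Lpin2, from 0.858 ± 0.301 CPM in chow-fed controls to 4.89 ± 0.214 in chow-fed KO livers, 6.89 ± 0.521 in HFD-fed controls and 28.4 ± 2.16 in HFD-fed KO livers. Of 16 clock genes, 9 were higher and 4 lower in HFD-fed KO livers, beside 32.4% of all genes. On chow 8 were higher and 2 lower, beside 31.2%. Feeding state and time of collection are not in the labels, and their part in the lipin differences was not tested. All 5 macrophage markers were higher in chow-fed KO livers (15.8% of all genes), and 4 were higher in HFD-fed KO livers (16.7%). With the diet 1 of the 5 was higher in controls (18.8% of all genes), and all 5 were lower in KO livers (18.1%). The part of macrophages in the lipin differences was not tested.

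Diacylglycerol acyltransferases close the pathway; Dgat1 and Dgat2 encode unrelated enzymes for the same reaction. Dgat2 (ENSMUSG00000030747, chromosome 7) was at 536, 516 and 537 CPM in chow-fed controls and 509, 516 and 490 CPM in HFD-fed controls. KO livers were at 432, 438 and 438 CPM on chow and 592, 588 and 609 CPM on HFD, so that they held both the lowest and the highest group. Dgat2 was lower in chow-fed KO livers (log2 fold change -0.28, SE 0.025, adjusted p = 5.79e-11) and higher on HFD (0.24, SE 0.025, adjusted p = 2.21e-09). These differences themselves differed between diets by 0.52 (SE 0.036, adjusted p = 1.30e-13). The diet raised Dgat2 1.37-fold in KO livers (0.45, SE 0.025, adjusted p = 2.66e-16). In controls it was lower by a small amount (-0.069, adjusted p = 0.0283), a call lost without control_chow replicate 1 (0.0995), control_chow replicate 3 (0.112) or control_HFD replicate 3 (0.170), over a range of 0.0126 to 0.991. All 5 hepatocyte markers were higher in HFD-fed KO livers, with a median log2 fold change of 0.59, beside 16.7% of all tested genes. In chow-fed KO livers 4 of these markers were lower and 1 was higher, beside 15.3% and 15.8% of all genes. Their median there was -0.15. Their part in the Dgat2 result was not tested.

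Dgat1 (ENSMUSG00000022555, chromosome 15) was at 24.9 to 27.6 CPM in chow-fed controls, 22.2 to 24.8 in HFD-fed controls, 23.1 to 24.0 in chow-fed KO livers and 23.1 to 27.0 in HFD-fed KO livers. The genotypes overlapped on HFD and not on chow. Between genotypes neither the difference of 0.10 on HFD (adjusted p = 0.249) nor that of -0.16 on chow (adjusted p = 0.0670) passed. Lower levels on HFD in controls passed narrowly (-0.17, SE 0.066, adjusted p = 0.0369), as did the difference between diets of the genotype effect (0.26, SE 0.094, adjusted p = 0.0320). Beside the fixed variation, the first of these was lost in 8 of 22 alternatives, with adjusted p up to 0.167, among them those without control_chow replicate 2 (0.167) or 3 (0.0745) or control_HFD replicate 1 (0.143) or 3 (0.107). The second was lost in 8 of 21, among them those without control_chow replicate 2 (0.0926) or 3 (0.0516), control_HFD replicate 1 (0.0807) or 3 (0.0647), KO_chow replicate 2 (0.0645) or 3 (0.0541), or KO_HFD replicate 2. On chow the genotype difference passed in 4 alternatives: without control_chow replicate 1 (-0.20, adjusted p = 0.0453), with upper quartile scaling (-0.17, 0.0485), and with the length and GC trend taken out, without (-0.22, 0.00881) and with the replicate block (-0.22, 0.00704).

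Mogat1 encodes a monoacylglycerol acyltransferase, which makes diacylglycerol without passing through phosphatidic acid, and is known in mouse liver as a gene raised in steatosis and by PPARg. Mogat1 (ENSMUSG00000012187, chromosome 1) had the largest fold with the diet of the 10 genes, from a low level. It was at 0.949, 1.42 and 1.29 CPM in chow-fed controls and 8.08, 8.50 and 8.26 CPM in HFD-fed controls. KO libraries were at 0.811, 0.746 and 1.22 CPM on chow and 2.56, 2.79 and 3.45 CPM on HFD. The chow groups overlapped, and every KO library on HFD lay above them and below every control library on HFD. These levels rested on 72 counts in chow-fed controls, 538 in HFD-fed controls, 56 in chow-fed KO livers and 171 in HFD-fed KO livers.

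Mogat1 rose 6.71-fold with the diet in controls (log2 fold change 2.75, SE 0.18, adjusted p = 2.92e-14) and 3.17-fold in KO livers (1.67, SE 0.23, adjusted p = 2.91e-07). On HFD, KO livers held 35.5% of the control level (-1.49, SE 0.16, adjusted p = 2.59e-09), which ranked 21 from the bottom of 9575 genes. On chow the difference of -0.42 did not pass (SE 0.27, adjusted p = 0.261). The genotype difference was lower on HFD than on chow by 1.08 (log2 difference -1.08, SE 0.32, adjusted p = 0.00923), a call lost without KO_chow replicate 3 (-0.84, adjusted p = 0.0796; range over alternatives 0.00314 to 0.213). Pparg, a receptor known to induce Mogat1, was at 15.7 ± 0.720 CPM in chow-fed controls, 19.8 ± 1.05 in HFD-fed controls, 10.9 ± 1.09 in chow-fed KO livers and 13.0 ± 0.988 in HFD-fed KO livers (KO against control on HFD -0.60, adjusted p = 5.95e-07). The part of Pparg in the Mogat1 values was not tested.

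**Figure D2:**
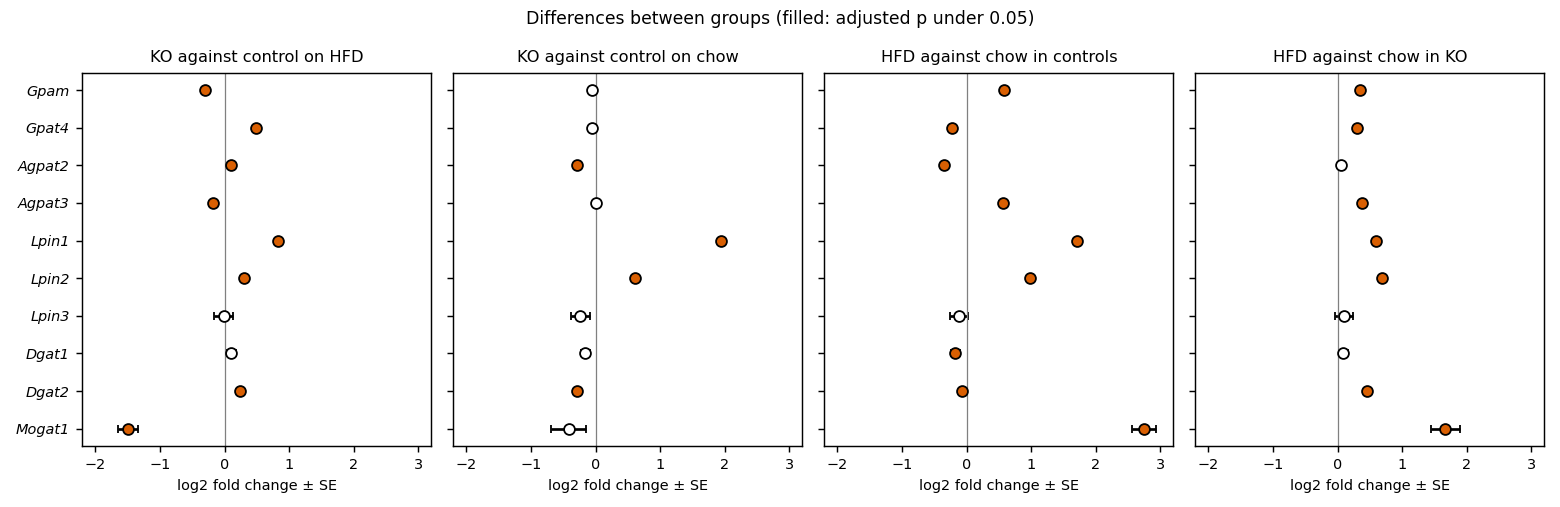
Log2 fold change with its SE (n = 3 libraries a group) for the 10 genes in 4 comparisons; filled points passed an adjusted p of 0.05. Lpin1 and Lpin2 lie right of 0 in all 4 panels, and Mogat1 lies at -1.49 in HFD-fed KO livers and at 2.75 with the diet in controls.

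Levels were then divided by the merged exon length of each gene, so that enzymes of a step could be compared. Per kb, the lipins changed most as a step. Their sum was 31.5 ± 0.308 CPM per kb in chow-fed controls, 72.9 ± 1.07 in HFD-fed controls, 69.8 ± 0.731 in chow-fed KO livers and 107 ± 0.958 in HFD-fed KO livers. Gpam and Gpat4 together ran from 47.7 ± 0.877 CPM per kb in chow-fed KO livers to 59.4 ± 0.571 in HFD-fed KO livers, with 56.7 ± 0.320 in HFD-fed controls. The opposite moves of the pair left the sums of the HFD groups close to each other. The sum of Agpat2 and Agpat3 was between 142 ± 2.21 and 167 ± 6.55 CPM per kb, highest in chow-fed controls. The diacylglycerol acyltransferases summed to 149 ± 1.00 CPM per kb in chow-fed KO livers and 202 ± 3.52 in HFD-fed KO livers. Merged exons cover all annotated transcripts, so a gene whose liver transcript is short is placed too low on this scale.

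**Figure D3:**
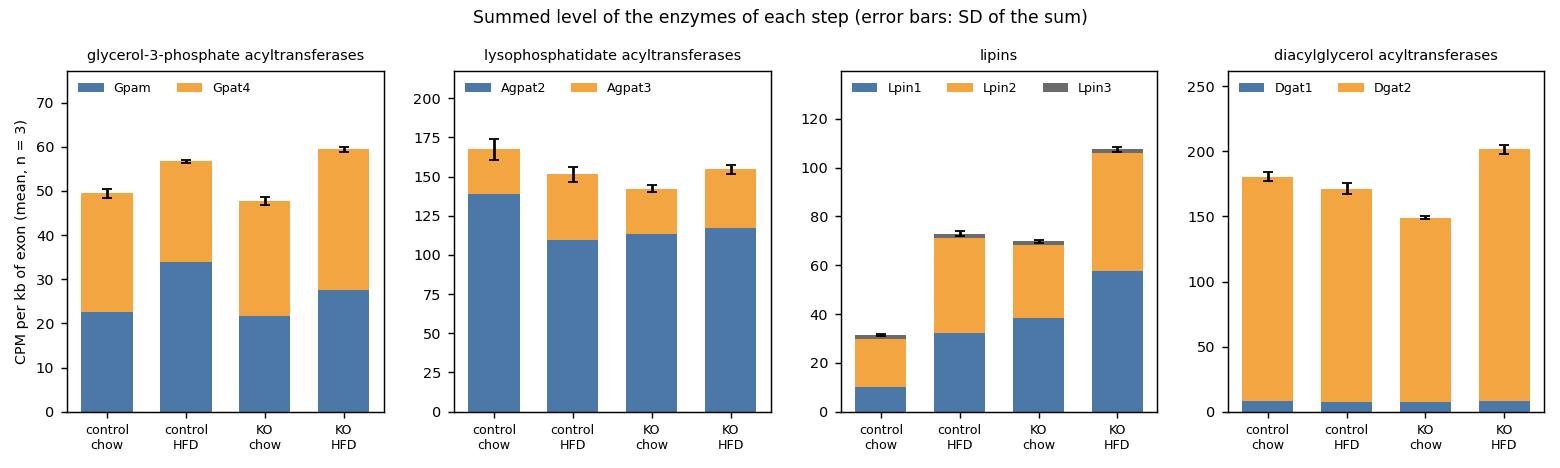
Stacked mean CPM per kb of exon of the enzymes of each step in the 4 groups (bars from 0); error bars are the SD of the sum over 3 libraries. The lipin sum is 31.5 in chow-fed controls and 107 in HFD-fed KO livers, and Dgat2 makes up nearly all of the last step.

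Within steps the balance between enzymes differed between groups without overlap for some ratios and with overlap for others. Lpin1 made up 31.3%, 31.4% and 31.9% of the lipin total in chow-fed controls and 44.9%, 45.0% and 43.2% in HFD-fed controls. In KO livers its share was 54.9%, 54.8% and 54.7% on chow and 53.8%, 53.4% and 53.8% on HFD, so that it stayed above the controls on either diet. The ratio of Gpam to Gpat4 was 0.843 in chow-fed controls, 0.839 in chow-fed KO livers and 0.866 in HFD-fed KO livers, but 1.48 in HFD-fed controls. All 3 control libraries on HFD stood apart from the other 9 libraries, at log2 ratios of 0.54 to 0.59 against -0.28 to -0.19. The Agpat2 to Agpat3 ratio was 4.87 in chow-fed controls, 3.97 in chow-fed KO livers, 3.14 in HFD-fed KO livers and 2.60 in HFD-fed controls, with no overlap between groups. Per kb, Dgat2 exceeded Dgat1 18.4-fold in chow-fed KO livers, 20.0-fold in chow-fed controls, 21.5-fold in HFD-fed controls and 23.6-fold in HFD-fed KO livers, but libraries of neighbouring groups overlapped. Of 16 exact two-sided permutation tests on these balances, 11 gave p = 0.1 (0.145 after Benjamini-Hochberg adjustment), the smallest that 3 against 3 libraries allow. Among the others, the Gpam to Gpat4 ratio gave an exact p = 0.8 between genotypes on chow and 0.2 with the diet in KO livers. The Dgat2 to Dgat1 ratio gave an exact p = 0.2 between genotypes on HFD, 0.3 on chow and 0.3 with the diet in controls.

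**Figure D4:**
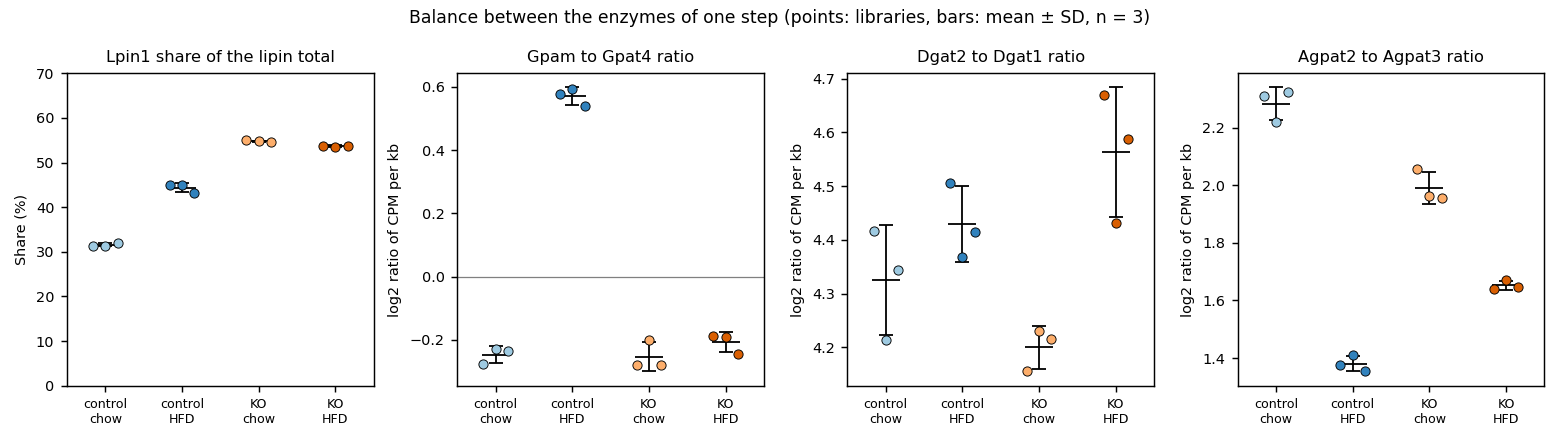
Share of Lpin1 in the lipin total (%) and log2 ratios of CPM per kb between enzymes of the other steps, by library (points) with mean ± SD, n = 3; the vertical axes of the ratios do not start at 0. The Gpam to Gpat4 ratio of HFD-fed controls, 0.57 on the log2 scale, lies apart from the other groups at -0.25, -0.25 and -0.21.

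The wider pathway was covered by a list of 30 genes for glycerol-3-phosphate supply, further acyltransferases, phosphatases, diacylglycerol kinases and phosphatidic acid use, of which 26 were tested. In HFD-fed controls 9 were higher than on chow and 1 lower, with a median log2 fold change of 0.19, where 37.7% of all tested genes were called in either direction. In HFD-fed KO livers 1 was higher than in controls and 8 were lower, with a median of -0.084, beside 32.4% of all genes. On chow 5 were higher and 4 lower in KO livers (31.2% of all genes), and with the diet in KO livers 6 were higher and 6 lower (36.6%). Except with the diet in KO livers, these calls lay near the shares of all genes in number. The genotype comparison on HFD and the diet comparison in controls share the HFD-fed control libraries, and each other pair of neighbouring comparisons shares a group likewise.

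Gpd1, Gk and Gpd2, which supply glycerol-3-phosphate, rose with the diet in both genotypes and were lower in KO livers on both diets. Gpd1, the cytosolic glycerol-3-phosphate dehydrogenase, was at 297 ± 3.48 CPM in chow-fed controls, 424 ± 8.02 in HFD-fed controls, 277 ± 7.26 in chow-fed KO livers and 362 ± 9.92 in HFD-fed KO livers. Gk, glycerol kinase, rose by 0.70 (SE 0.043, adjusted p = 2.12e-15) with the diet in controls and was lower in KO livers, with log2 fold changes of -0.39 on HFD (SE 0.042, adjusted p = 4.19e-09) and of -0.20 in the comparison on chow (adjusted p = 0.000422). Gpd2, the mitochondrial dehydrogenase, rose by 0.68 (SE 0.047, adjusted p = 5.23e-14) and was lower in HFD-fed KO livers (-0.40, SE 0.046, adjusted p = 1.33e-08). Gpat3, a further acyltransferase of the endoplasmic reticulum, went from 5.68 ± 0.552 to 10.9 ± 1.40 CPM with the diet in controls and was at 8.66 ± 0.135 CPM in HFD-fed KO livers (-0.33, adjusted p = 0.0177).

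Diacylglycerol kinases, which return diacylglycerol to phosphatidic acid, were lower in HFD-fed KO livers for Dgkq (-0.54, SE 0.069, adjusted p = 1.26e-07) and Dgkd (-0.27, SE 0.073, adjusted p = 0.00364). Agpat1 was the gene of the list that was higher there (0.28, SE 0.091, adjusted p = 0.0166), at 16.5 ± 1.60 against 13.6 ± 1.40 CPM. Cds2, which leads phosphatidic acid to CDP-diacylglycerol, fell with the diet in controls (-0.28, SE 0.039, adjusted p = 4.38e-07). Plpp3, a lipid phosphate phosphatase of the cell surface, rose with it (0.24, SE 0.035, adjusted p = 1.42e-06), and neither passed between genotypes on HFD (adjusted p = 0.694 and 0.492).

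**Figure D5:**
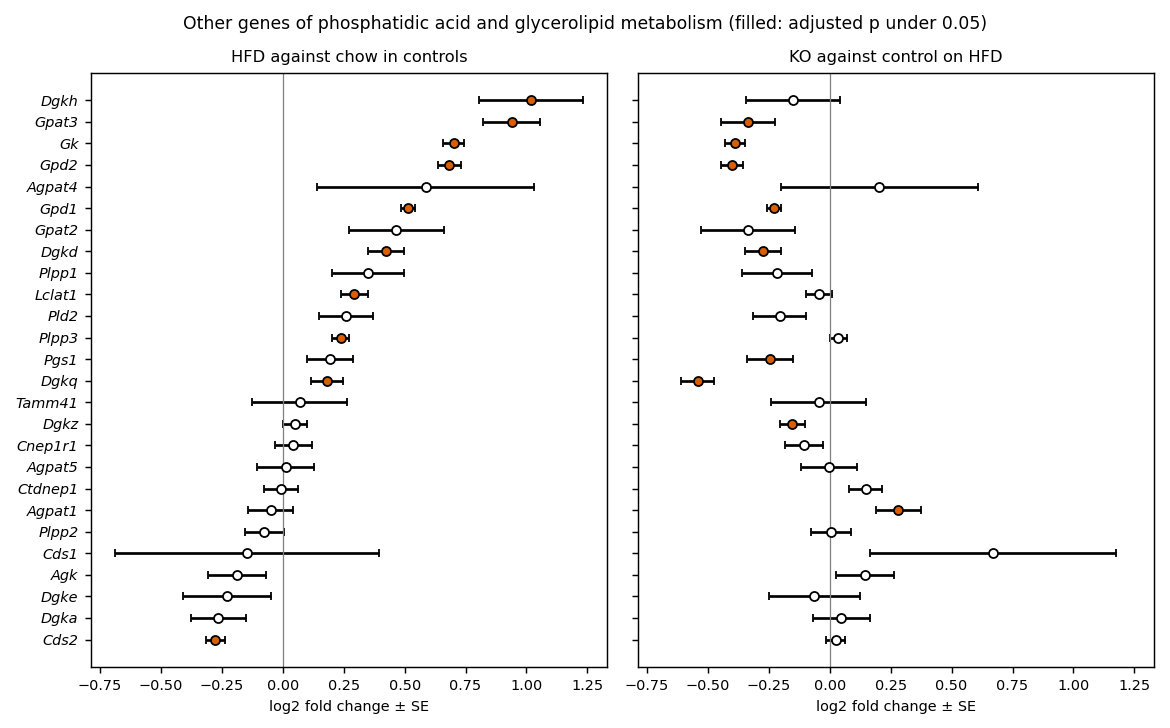
Log2 fold change with its SE for 26 other genes of the pathway, with the diet in controls (left) and in KO against control livers on HFD (right); filled points passed an adjusted p of 0.05. Gk, Gpd1 and Gpd2 lie at 0.70, 0.51 and 0.68 on the left and at -0.39, -0.23 and -0.40 on the right.

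Of 16 regulators of these genes, 8 were higher and 3 lower in HFD-fed KO livers, with a median log2 fold change of 0.11, where 16.7% and 15.6% of all genes were called in these directions. On chow 4 were higher and 7 lower, beside 15.8% and 15.3%. On HFD Insig2, which encodes a protein that holds SREBP precursors in the endoplasmic reticulum, was lower (-0.55, SE 0.026, adjusted p = 3.99e-18), at 394 ± 11.5 CPM in KO livers against 577 ± 6.10 CPM in controls. Srebf1, which encodes the lipogenic factor SREBP1, was higher in HFD-fed KO livers (0.28, SE 0.028, adjusted p = 6.69e-10), at 363 ± 6.09 against 299 ± 8.39 CPM. It was lower in KO livers on chow (-0.15, adjusted p = 5.49e-05), at 346 ± 6.44 against 384 ± 8.59 CPM, and lower with the diet in controls (-0.36, adjusted p = 8.26e-13). Nr0b2, a nuclear receptor that represses transcription, was higher in HFD-fed KO livers by 0.56 (SE 0.047, adjusted p = 1.42e-11) and Hnf4a, a hepatocyte identity factor, by 0.19 (SE 0.024, adjusted p = 1.06e-07).

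For the 4 members whose group means differed at least 1.5-fold, the genes closest in pattern were listed by Pearson's r of log2 levels over the 12 libraries, among 9430 genes. The points share 4 group means, and 52 genes reached an r of 0.95 with Lpin1 and 112 with Gpam. Closest to Lpin1 were the chaperone gene Hspa8 (r = 0.996) and Epas1 (0.994), which encodes a hypoxia-inducible factor. Closest to Lpin2 were Rgs16 (0.996), a regulator of G protein signalling, and the co-chaperone gene Dnaja1 (0.992). Gpam went with Inhbe (0.995), an inhibin subunit gene, and Abcb4 (0.994), a phospholipid transporter gene of bile. Mogat1 went with Lgals1 (0.992), which encodes galectin 1, and Adgrv1 (0.987), an adhesion receptor gene.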

How the data were processed

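TRIzol was used to isolate liver RNA, per the labels' protocols. The deposited values are raw counts per Ensembl gene, as whole numbers with differing column totals show. Reads were processed with Bowtie 0.12.2 on mm8, per the submitters' processing notes. How genes were counted, and whether strand was used, is not given, so that reads shared with paralogs or antisense genes are uncertain. Symbols came from GENCODE M21 (53360 of 53465 IDs matched), used for names, chromosomes, lengths and GC content.

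Counts were filtered by filterByExpr (14778 genes kept, all 10 members among them), scaled by TMM and fitted in edgeR 4.0.16 (R 4.3.3) by glmQLFit with 4 group means over 12 libraries; p-values of glmQLFTest were adjusted by Benjamini-Hochberg over all tested genes. The SE is the log2 fold change divided by the square root of F. The common biological coefficient of variation was 3.95%. Each library was counted as 1 replicate. Within groups, pairs of libraries differed by more than sampling noise (median chi-square 1.59 to 2.34 times its expectation), which does not tell technical from biological spread. The fit was also run on counts simulated from its own estimate of the spread, which cannot show whether that spread is biological. Balances between enzymes were tested by exact permutation (scipy 1.17.1).

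Alternatives were other scalings, filters, DESeq2 1.42.0, limma-voom (limma 3.58.1), fits of 2 groups, the replicate number as a block, removal of each library's trend on transcript length and GC (with and without the block), a coefficient of variation fixed at 20%, and leaving out each library. The members, lists, motifs and tests were chosen with earlier results of these data known. Other genes were named by rule: up to 6 pathway genes by smallest p with the diet in controls and between genotypes on HFD, up to 4 regulators and Pparg, and 2 genes by likeness of pattern. The glucocorticoid, fasting and clock genes set beside the lipins were added after values were seen.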

Additional observations from a re-analysis of the deposited data

Results flagged for a closer look

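The genotype difference differed between chow and HFD, by the interaction term of the model, for 9 of the 10 enzymes; the values are log2 differences (difference on HFD minus difference on chow). The difference was higher on HFD for Gpat4 (0.53), Dgat2 (0.52), Agpat2 (0.39) and Dgat1 (0.26). For Lpin1 (-1.11), Mogat1 (-1.08), Lpin2 (-0.30), Gpam (-0.24) and Agpat3 (-0.18) it was lower. For Gpam, Gpat4, Agpat3, Dgat1 and Mogat1 the levels of the genotypes on chow did not differ past the threshold in the main fit. With the length and GC trend removed, all of these but Mogat1 did. For Lpin1 and Lpin2 the KO level was above the control level on both diets. Of all tested genes 29.8% passed this test. The calls of Agpat3, Dgat1 and Mogat1 were lost in some of the alternatives, as given with these genes above. With the coefficient of variation fixed at 20%, Lpin1 was the only enzyme that passed.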

How the results depend on the processing

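Over 1140 refits of the 50 differences of single enzymes, 1062 kept direction and side of the threshold and 16 changed sign. In all 55 lost their call, 29 of them with the variation fixed at 20% and 4 with a change of sign, and 13 gained it, 2 of them with a change of sign. With that variation, the genes called fell to 534 between genotypes on HFD, 931 on chow, 1194 with the diet in controls, 1102 in KO livers and 510 for the interaction; among the 10 enzymes 2, 1, 3, 1 and 1 remained past the threshold. After removal of the length and GC trend, 8 enzymes in place of 4 passed between genotypes on chow, and also 8 with the replicate block, the added ones being Gpam, Gpat4, Agpat3 and Dgat1. Among all 14778 tested genes, 4839 passed there without the block and 4805 with it, against 4604 in the main fit. Signs changed in these 2 fits, with the block given last, for Agpat2 on HFD between genotypes at -0.0039 and -0.0042, Lpin3 there at 0.020 and 0.022, Agpat3 on chow at -0.085 (adjusted p = 0.0142) and -0.085 (0.0187), and the interaction of Agpat3 at 0.0033 and 0.0032. Agpat3 between genotypes on chow was -0.0065 with upper quartile scaling.

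Leaving out single libraries gave 7 to 8 enzymes past the threshold between genotypes on HFD, 4 to 5 on chow, 7 to 9 with the diet in controls, 7 in KO livers and 7 to 9 for the interaction. All genes called ranged from 4139 to 4828, 3977 to 4676, 4907 to 5657, 4756 to 5462 and 3934 to 4184. Signs changed for Lpin3 between genotypes on HFD (-0.084 to 0.029) and with the diet in KO livers (-0.032 to 0.30), and for Agpat3 between genotypes on chow (-0.021 to 0.032). The Gpam to Gpat4 balance between genotypes on chow ranged from -0.033 to 0.0076.

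Deviations of same-numbered libraries from their group means correlated at -0.111 to 0.103, and those of other-numbered libraries at -0.0766 to 0.0745. With 3 libraries a group, these values cannot show whether the replicate numbers pair the libraries. With the replicate block alone no enzyme changed its call, with 8, 4, 9, 7 and 9 past the threshold in the order above, among 4741, 4544, 5515, 5357 and 4331 genes. Low counts limit Lpin3, Mogat1 and Dgat1. The causes were not tested.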

Other observations

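Clock genes were looked at beside the lipins after the data had been seen. Of 16 genes, 9 were higher and 4 lower in HFD-fed KO livers, and 8 higher and 2 lower on chow; with the diet 9 were higher and 4 lower in controls and 9 higher and 5 lower in KO livers. Of all tested genes 32.4%, 31.2%, 37.7% and 36.6% were called in these comparisons. Per1, a clock gene that glucocorticoids induce, was at 37.9 ± 1.20 CPM in chow-fed controls, 53.5 ± 2.23 in HFD-fed controls, 64.5 ± 1.88 in chow-fed KO livers and 68.1 ± 5.52 in HFD-fed KO livers. Of 12 genes of the fasting and glucocorticoid response, 9 were higher and 2 lower in chow-fed KO livers. In HFD-fed KO livers 6 were higher and 3 lower, beside the same 31.2% and 32.4% of all genes. With the diet 7 were higher and 5 lower in controls and 6 higher and 4 lower in KO livers. Of all genes 37.7% and 36.6% were called there. This list too was made after values were seen. Pck1, a gluconeogenic enzyme gene, was higher in KO livers by 0.47 on chow and 0.44 on HFD, whereas Pdk4, a kinase gene induced by fasting, was lower, with log2 fold changes of -1.41 and -1.07. The cause was not tested.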
